A study of Mus musculus with 4 samples.

Results

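The cells described here were picked as candidate T and natural killer (NK) lymphocytes of the mouse ventral prostate. A cell was picked if it had at least 500 unique molecular identifiers (UMIs, each standing for 1 captured transcript), at most 20% of them mitochondrial, at least 2 UMIs summed over Cd3d, Cd3e, Cd3g, Trac, Trbc2 and Nkg7, at most 1 UMI of C1qa, C1qb and C1qc, and under 10% of UMIs from the luminal secretory genes Sbp and Spink1. The rule took 198 of the 8091 cells that passed the first 2 limits, out of 11245 cells in the deposited tables. Of these, 20 came from the library sham1, 18 from sham2, 77 from te2_1 and 83 from te2_2. The cells were chosen by the measured values of these genes, so the levels of those genes are given as a description and carry no test.

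The study profiled single cells of the ventral prostate from wild-type (wt) C57BL6j mice, 2 of a group labelled sham and 2 of a group labelled te2, whose code is not explained in the labels. Per the series' design text, the mice carried implanted hormone pellets for 2 weeks. Each library is 1 animal, with both of its ventral lobes pooled, dissociated at low temperature by a protease of Bacillus licheniformis and strained, and 7000 cells per library were loaded on a droplet platform that reads the 3' end of transcripts. The replicates are therefore 2 animals per group. Kept cells of the te2 libraries were deeper, with a median of 3426.5 and 4075 UMIs against 1203.5 and 1722 in sham. Barcodes found in more than 1 library numbered 15, and 0 of them belonged to the picked cells.

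T lymphocytes recognise antigen through a receptor whose alpha and beta chains (constant parts Trac, Trbc1 and Trbc2) sit in a complex with the CD3 chains Cd3d, Cd3e and Cd3g. Their CD8 class uses the coreceptor chains Cd8a and Cd8b1 and kills with granzymes. NK cells lack CD3 at the cell surface and signal through adaptors such as Fcer1g and Tyrobp, which couple to activating receptors. Innate-like T cells of epithelia can share parts of both programs, and many carry the integrins Itgae (CD103) and Itga1 (CD49a), which hold lymphocytes in tissue.

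The name T and NK lymphocytes went against the data for 104 of the 198 picked cells, with 1 exception among them given below. The share of UMIs from 12 genes of leukocytes in general (among them Ptprc, Cd52, Coro1a and Rac2) fell into separate ranges. In 94 cells it ran from 0.141% to 2.77%, with a median of 1.03%. In the other 104 it ran from 0 to 0.0699%, and 60 of these had 0 UMIs of the 12 genes. The limit between them, 0.1%, was set after the data were seen, so every result on the 94 cells below is a description of these 4 animals. The cells with leukocyte transcripts numbered 16, 11, 28 and 39 in sham1, sham2, te2_1 and te2_2, and the cells without them 4, 7, 49 and 44. The latter are called by their rule here and not lymphocytes. For 1 of them, the sham1 cell of 4290 UMIs at 0.0699%, this is uncertain. It had 7 UMIs of the rule genes, 7 of Fcer1g and Tyrobp and 21 of the granule and killer-lectin transcripts listed below, with 5 keratin UMIs.

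**Figure D1:**
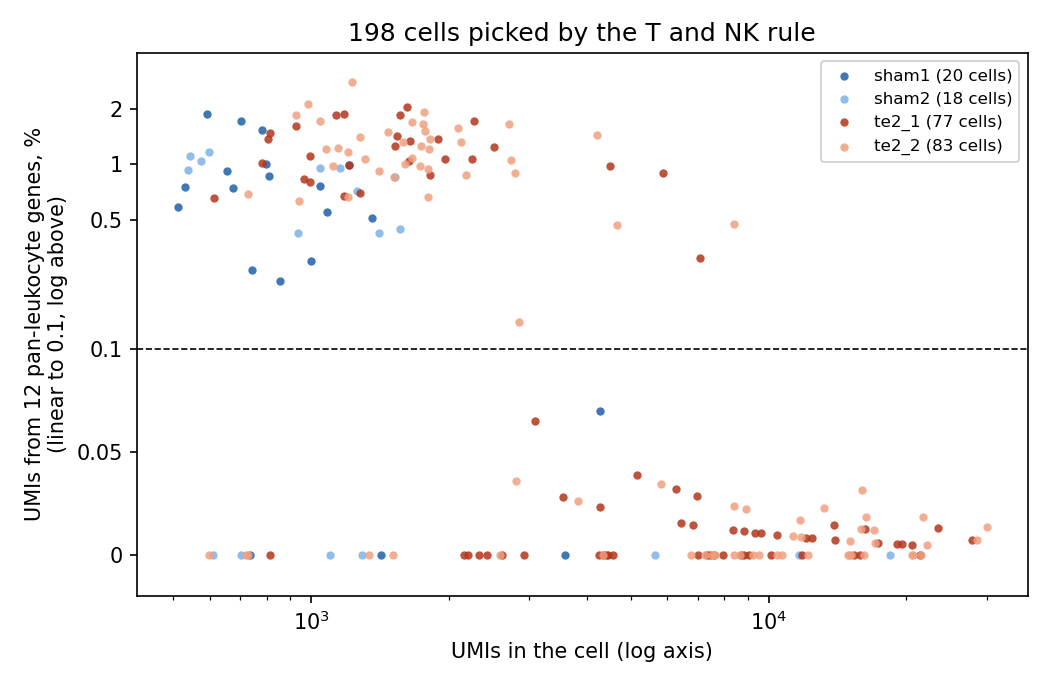
Each point is 1 of the 198 picked cells, with its UMI total on a log axis and its share of UMIs from 12 pan-leukocyte genes on the other axis, coloured by library. The dashed line marks 0.1%, with 94 cells above it and 104 below, and the cells below have a median of 8681 UMIs against 1279.5 above.

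The 104 cells without leukocyte transcripts were large and carried epithelial genes. Their median was 8681 UMIs, against 1279.5 in the 94 cells. At least 5 UMIs of 7 keratin genes were found in 97 of the 104 and in 4 of the 94. Krt18, a keratin of simple epithelia, was seen in 96 of the 104 cells, Krt8 in 92 and Krt15, a keratin of basal cells, in 64. Their entry through the rule rested mainly on Cd3d, the CD3 delta chain, with at least 2 UMIs in 93 of the 104. Other lymphocyte genes were at or near 0: Cd3g gave 1 UMI in all 104 cells, Trbc2 gave 3, and Cd8a and Cd7 gave 0. Ccl5 gave 18 UMIs, 17 of them in a single sham1 cell. Granule and killer-lectin transcripts (Gzma, Gzmb, Gzmk, Prf1, Ctsw, Ccl5, Klrd1) were at 0 UMIs in 102 of the 104 cells, against 5 of the 94.

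Cd3d was spread over the whole tissue at a low level. In all kept cells outside the 94, it stood at 0.398, 0.404, 0.33 and 0.339 UMIs per 10000 UMIs in sham1, sham2, te2_1 and te2_2. Cd3g, from the same receptor complex, stood at 0.00807, 0.00397, 0.00169 and 0.000789. Cd3d was found in all 4 libraries at a similar level, slightly higher in sham, while Cd3g was close to 0 in all of them. In luminal cells, with at least 10% of UMIs from Sbp and Spink1 and a median of 3095.5 UMIs, 11.4% of cells had a Cd3d UMI and 0.093% a Cd3g UMI. Whether reads of another transcript were counted as Cd3d was not tested. With every cell thinned to 500 UMIs, the rule took a mean of 13.5, 11.1, 25.3 and 33.6 cells over 20 draws. Of these, 12.6, 9.5, 24.5 and 31.3 had leukocyte transcripts, in the same order of libraries. The part of depth in the entry of cells without leukocyte transcripts, apart from the cell makeup of the libraries, was not tested.

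Cells at the edge of the rule show the same division. Of 550 cells with exactly 1 UMI of the 6 genes, just outside, 25 had leukocyte transcripts. Of 101 cells with exactly 2, just inside, 6 had them. With 3 UMIs it was 6 of 11, with 4 it was 9 of 12, and with 6 or more it was 70 of 71. A further 66 kept cells with 2 UMIs or more were left out for their Sbp and Spink1 share, and 5 for C1q transcripts.

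The 94 cells with leukocyte transcripts carried the markers set for T and NK lymphocytes. Trbc2, the constant part of a T cell receptor beta chain, was found in 63 of them, Cd3g in 75 and Nkg7, a protein of cytotoxic granules, in 76. Among markers that the rule did not use, Ccl5, a chemokine of activated lymphocytes, was found in 87 cells (92.6%), against 1.12% of luminal cells, which were deeper. Cd7, a surface protein of T and NK cells, was found in 53, and Gzmb, a granzyme, in 49 (52.1%), against 0.093% of luminal cells. The 94 cells are called lymphocyte-like below. Their median depth was 1279.5 UMIs, against 3095.5 in the luminal cells.

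Receptor transcripts were present in every library. Cd3g gave 14, 15, 110 and 168 UMIs in sham1, sham2, te2_1 and te2_2, which is 10.5, 13.5, 20.9 and 22.1 per 10000 UMIs of the lymphocyte-like cells. Both te2 libraries stood above both sham libraries, with means of 21.5 ± 0.859 and 12 ± 2.1 (SD, n = 2 each). Cd3g is a gene of the rule, so this order is a description only. Trbc2 stood at 7.49, 11.7, 10.7 and 12.7 per 10000, and Cd3e at 8.99, 11.7, 10.3 and 7.25. These values of Trbc2 and Cd3e overlapped between the groups. Trac, the constant part of the alpha chain, gave 18 and 21 UMIs in the te2 libraries, in 17 cells, and the sham tables do not list it, so no fold is given. A table lists a gene only where at least 3 of its cells had it.

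The coreceptors were almost wholly those of CD8. Cd8a gave 8, 0, 28 and 21 UMIs, and was seen in 5 sham and 24 te2 cells. Cd8b1, the beta chain that marks conventional CD8 T cells, gave 39 and 10 UMIs in te2_1 and te2_2, in 17 cells, and is not listed in the sham tables. In sham2 Cd8a was at 0 in 11 cells and 11152 UMIs, and Cd8b1, which is not listed there, may still have been present in up to 2 cells of the library. Cd4 gave 1 UMI in the 94 cells, in sham1. Genes of regulatory and helper T cells were scarce too, with 3 of 9 listed in any table (Foxp3, Ctla4 and Cd40lg are not) and 22 UMIs in all, most of them from Tnfrsf18 (GITR). At this depth a CD4 T cell class was not detectable, which does not show that it is absent.

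Effector genes were found in sham and in te2. Ccl5 gave 249, 321, 832 and 1220 UMIs in 15 of 16, 11 of 11, 25 of 28 and 36 of 39 cells. Per 10000 UMIs it stood at 186, 288, 158 and 161, so both sham libraries were above both te2 libraries. Gzmb stood at 16.5, 12.6, 6.09 and 10.9 per 10000, with both sham libraries again above both te2 libraries. Xcl1, a chemokine that draws cross-presenting dendritic cells, stood at 8.99, 17.9, 10.8 and 16.6, and Nkg7 at 17.2, 23.3, 29.5 and 18.7. For these last genes the groups overlapped.

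Several effector genes came from few cells. Gzma, another granzyme, gave 46 and 43 UMIs in te2_1 and te2_2, in 7 cells altogether, and is not listed in the sham tables. Gzmc gave 99 UMIs, all in 3 cells of te2_2. Ccl4, a chemokine, gave 10, 1, 9 and 194 UMIs, with 105 of them in a single te2_2 cell. Ccl1 gave 94 UMIs in 2 cells of te2_2. Their library values therefore rest on those cells and were not read as group differences.

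The adaptors Fcer1g and Tyrobp were found in 58 and 53 of the 94 cells, with 47 cells carrying both. Fcer1g gave 33, 52, 80 and 181 UMIs and stood at 24.7, 46.6, 15.2 and 23.9 per 10000. Tyrobp gave 27, 37, 49 and 106 UMIs and stood at 20.2, 33.2, 9.32 and 14. Both adaptors were higher in both sham libraries than in both te2 libraries, with a te2-to-sham ratio of 0.586 for Fcer1g (95% counting interval 0.457 to 0.757) and 0.462 for Tyrobp (0.343 to 0.628). These intervals cover counting error only and not the spread between animals. In luminal cells, 1.27% had an Fcer1g UMI and 1.55% a Tyrobp UMI, and in 330 C1q cells (at least 3 UMIs of the C1q genes, a macrophage trait) 88.5% and 87.3%.

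NK receptor genes were present at lower counts. Klra7, a Ly49-family receptor, gave 6, 5, 21 and 51 UMIs in 32 cells. Klrb1c (NK1.1) was seen in 30 cells and Klrd1 (CD94) in 30. Ncr1 (NKp46), a defining NK receptor, was seen in 8 cells, 5 of which also had Cd3g. Of the 32 Klra7 cells, 30 carried Fcer1g and 24 carried Cd3g, which is a rule gene.

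Other innate lymphoid programs were thin. Of 12 genes of gamma-delta T cells, 5 are listed in a table. Trdc, the delta chain constant part, gave 15 UMIs in 9 cells, 7 of them with Trbc2, and Trgv2 gave 34 UMIs in 21 cells. Of 14 genes of type 2 innate lymphoid cells, 7 are listed (Il13, Il5, Areg and Icos are not), and together they gave 9 UMIs. Gata3, a factor of that lineage, was seen in 15 of the 94 cells, but also in 17.1% of luminal cells and 53 of the 104 cells without leukocyte transcripts.

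**Figure D2:**
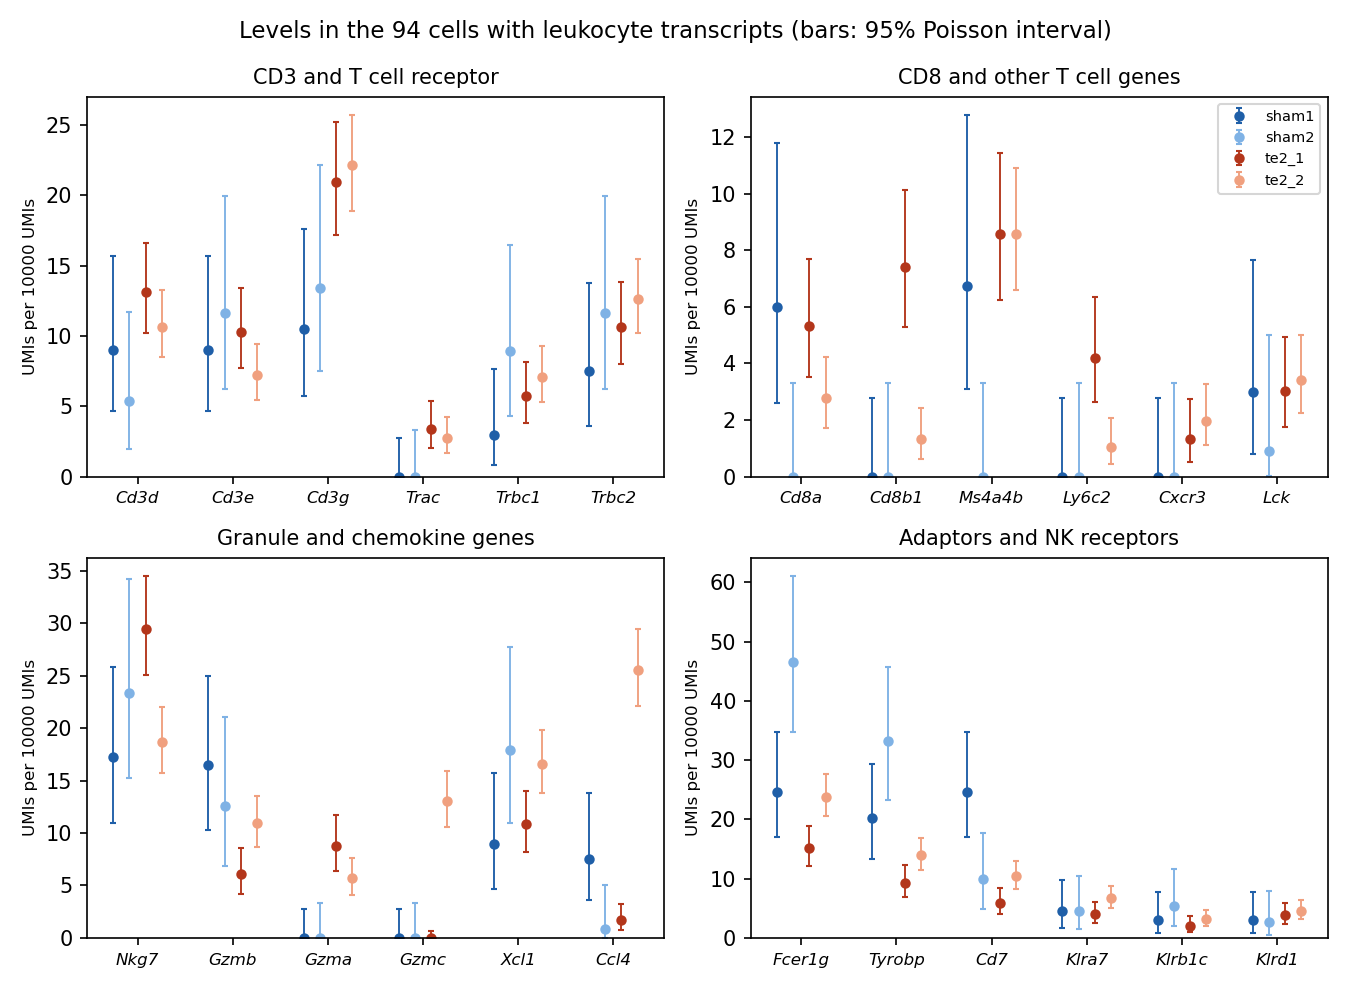
UMIs per 10000 UMIs in the 94 lymphocyte-like cells, by gene and library, with 95% Poisson intervals that cover counting error only. Fcer1g and Tyrobp are higher in both sham libraries, and Gzmc comes from te2_2 alone. Cd3g is higher in both te2 libraries, but it is a gene of the rule, so its order is a description only.

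Genes of tissue residence were seen in all libraries. Itga1 stood at 8.24, 4.48, 4.37 and 4.74 per 10000, Itgae at 3, 8.07, 1.14 and 3.16, and Cxcr6, a chemokine receptor of resident T cells, at 1.5, 5.38, 3.23 and 3.43. The groups overlapped for all 3. Among markers of recirculating or naive cells, Ms4a4b, a membrane protein of T and NK cells, stood at 6.74, 0, 8.56 and 8.57 per 10000, so that sham1 was close to te2. Counts were low for Ly6c2, a surface marker of memory CD8 cells, with 0, 0, 22 and 8 UMIs. Tcf7, a factor of naive and memory T cells, gave 2 UMIs in all.

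Markers of other cell types were at or near 0 with stated exceptions. Mast cell and basophil markers gave 1 UMI and neutrophil markers 10, with 5 of 6 listed neutrophil genes at 0. B and plasma cell markers gave 36 UMIs, 28 of them Ighm. Dendritic cell markers gave 3, 1, 179 and 21 UMIs, and 1 cell of te2_1 held all 74 of its library's Cd74 UMIs, all 50 of its Lyz2 UMIs and 69 UMIs of Retnla, genes of antigen-presenting and myeloid cells. Basal markers gave 0, 0, 8 and 74 UMIs, mostly Krt15. Luminal markers moved with the groups: the 8 genes summed to 366, 368, 30.6 and 57.7 UMIs per 10000, and every one of the 27 sham cells had Sbp and Spink1 UMIs. The part of such transcripts in the group differences was not tested.

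The 94 cells were divided by their adaptors. Fcer1g and Tyrobp together gave 0 UMIs in 30 cells, 1 in 3 cells, 2 in 9, 3 in 7 and 4 or more in 45. The 64 cells with an adaptor UMI are called adaptor cells below, a division made after the data were seen. Of these, 57 also carried a CD3 or T cell receptor transcript, and all 30 cells without an adaptor carried one. The rule asked for these receptor transcripts or Nkg7, so a receptor transcript in nearly every cell was set by the choice of cells. An adaptor cell of te2_1 with 4506 UMIs had 10 UMIs of Fcer1g, 14 of Tyrobp and 1 each of Cd3d, Cd3e and Cd3g. It had 0 UMIs of Nkg7, Ccl5, Gzmb, Cd7 and Klra7, so these markers go against the name lymphocyte-like for it. Its 24 adaptor UMIs are part of the te2_1 adaptor levels.

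Adaptor cells held most of the granzyme B, Cd7 and Xcl1. In adaptor cells Gzmb stood at 12.7 UMIs per 10000 (95% counting interval 10.7 to 15), and in the rest at 2.17 (0.991 to 4.12). Cd7 stood at 13.2 (11.1 to 15.5) and 1.69 (0.678 to 3.47), and Xcl1 at 18.4 (16 to 21.1) and 2.41 (1.16 to 4.43). Single adaptor cells held 26 Xcl1 UMIs in te2_1 and 28, 25, 22 and 17 in te2_2, a spread between cells that the interval does not cover. Xcl1 was seen in 35 of 57 adaptor cells with receptor transcripts, 4 of 7 without them, and 5 of 30 cells without an adaptor. Klra7 gave 83 UMIs in 32 adaptor cells and 0 in the others, which allows up to 0.889 per 10000 there. Txk, a T and NK cell kinase, stood at 6.91 and 1.93, Il2rb, the receptor chain for IL-15 and IL-2, at 6.73 and 2.17, and Itga1 at 6.01 and 1.93. Each of these was more abundant among adaptor cells.

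Cells without an adaptor held the CD8 beta chain. Cd8b1 gave 44 UMIs in 16 of these 30 cells, and 5 UMIs in 1 of the 64 adaptor cells. Cd8a was seen in 18 of 30 and 11 of 64. Ms4a4b stood at 14.7 per 10000 against 5.2 in adaptor cells, Ly6c2 at 5.06 against 0.808, and Cd3d, a gene of the rule, at 19 against 7.98. The costimulatory receptor Cd28 (8 against 3 UMIs), the receptor Cd27 (11 against 11), Thy1 (9 against 4) and the T cell factor Bcl11b (13 against 9) were more abundant per UMI in cells without an adaptor, which gave 41507 UMIs against 111460. The counting intervals overlapped for Ccl5, at 178 (166 to 192) and 169 (161 to 177), and for Ptprc (CD45), at 15.7 (12.1 to 20) and 14.9 (12.7 to 17.3). The 30 cells without an adaptor pool 20 with Cd8a or Cd8b1 and 10 with neither, so their Ccl5 level is an average over unlike cells. At least 2 UMIs of the cytotoxic genes, Ccl5 among them, were found in 18 of the 20 and 5 of the 10. Single cells held up to 115 Ccl5 UMIs among the 20 and up to 13 among the 10.

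**Figure D3:**
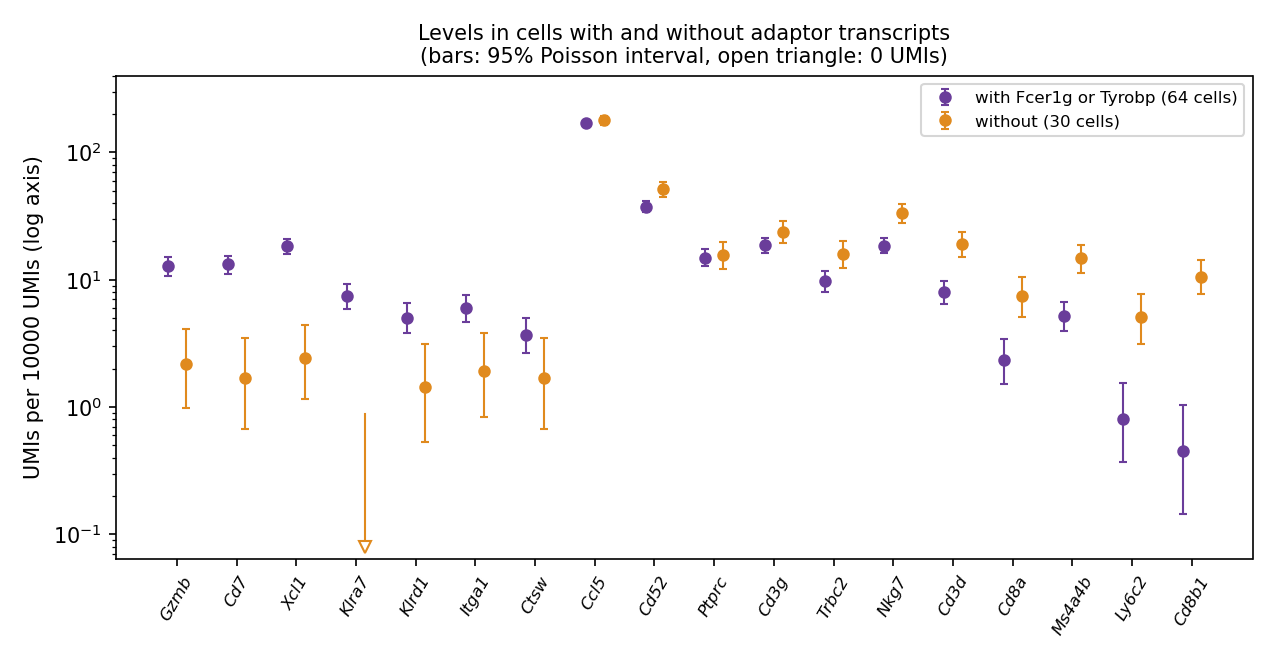
UMIs per 10000 UMIs, on a log axis, in the 64 lymphocyte-like cells with Fcer1g or Tyrobp and the 30 without, with 95% Poisson intervals that cover counting error only and an open triangle for 0 UMIs. Gzmb, Cd7, Xcl1 and Klra7 lie higher in cells with an adaptor, Cd8b1, Ly6c2, Ms4a4b and the rule gene Cd3d higher in cells without, and Ccl5 and Ptprc lie close together. The 30 cells pool 20 with Cd8a or Cd8b1 and 10 with neither, so their Ccl5 level is an average over unlike cells.

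Within libraries, Gzmb was compared first. In te2_1 Gzmb stood at 9.17 per 10000 in adaptor cells and 1.81 in the rest, and in te2_2 at 13.6 and 0.642. In sham1 it stood at 19 and 10.3, the latter from 4 UMIs in 1 of 5 cells. Sham2 had no cell without an adaptor, so no value can be set beside its 12.6. Cd7, Xcl1, Klra7, Il2rb and Itga1 were, like Gzmb, higher in adaptor cells in each of the 3 libraries with both kinds of cells, and Cd8a and Ms4a4b lower. In sham1, with 5 cells lacking an adaptor, Txk (8.45 and 10.3) and Cd3d (9.5 and 7.73) had the opposite order to that of the pooled cells.

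In 7 adaptor cells no CD3 or T cell receptor UMI was found. Their Nkg7 count, at least 2 UMIs each, brought them into the rule. All 7 had Klrb1c, against 19 of the 57 adaptor cells with receptor transcripts, and 5 of 7 had Klra7. The te2_2 cell of 2846 UMIs among them had 37 keratin UMIs, 0 of Ptprc and Cd52, 1 each of Klrb1c and Fcer1g, and the lowest leukocyte share of the 94 cells (0.141%). Gzma was seen in 3 of the 7, with 51 of the 89 Gzma UMIs of all lymphocyte-like cells. These 3 cells, 2 from te2_1 and 1 from te2_2, had 0 UMIs of Gzmb, Cd7, Xcl1, Itgae and Itga1, and each had Klra7, Klrb1c and Ms4a4b. They carried markers of NK cells without those of tissue residence, while a missing UMI in a cell of 993 to 1801 UMIs does not show that a transcript is absent. The remaining Gzma cells had CD3 transcripts, 2 with adaptors and 2 with Cd8b1 and no adaptor.

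The 3 Gzmc cells of te2_2 also stood apart. They held 47, 32 and 20 UMIs of Gzmc, with T cell receptor and Fcer1g transcripts, and had 8420, 4670 and 1410 UMIs in all. Their Ccl5 was 1, 2 and 2 UMIs, where the 94 cells had 2622 in all. Xcl1 gave 28, 22 and 3 UMIs in them. The larger 2 also carried 28 and 21 keratin UMIs, a trait of the cells without leukocyte transcripts, and the third carried 0.

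**Figure D4:**
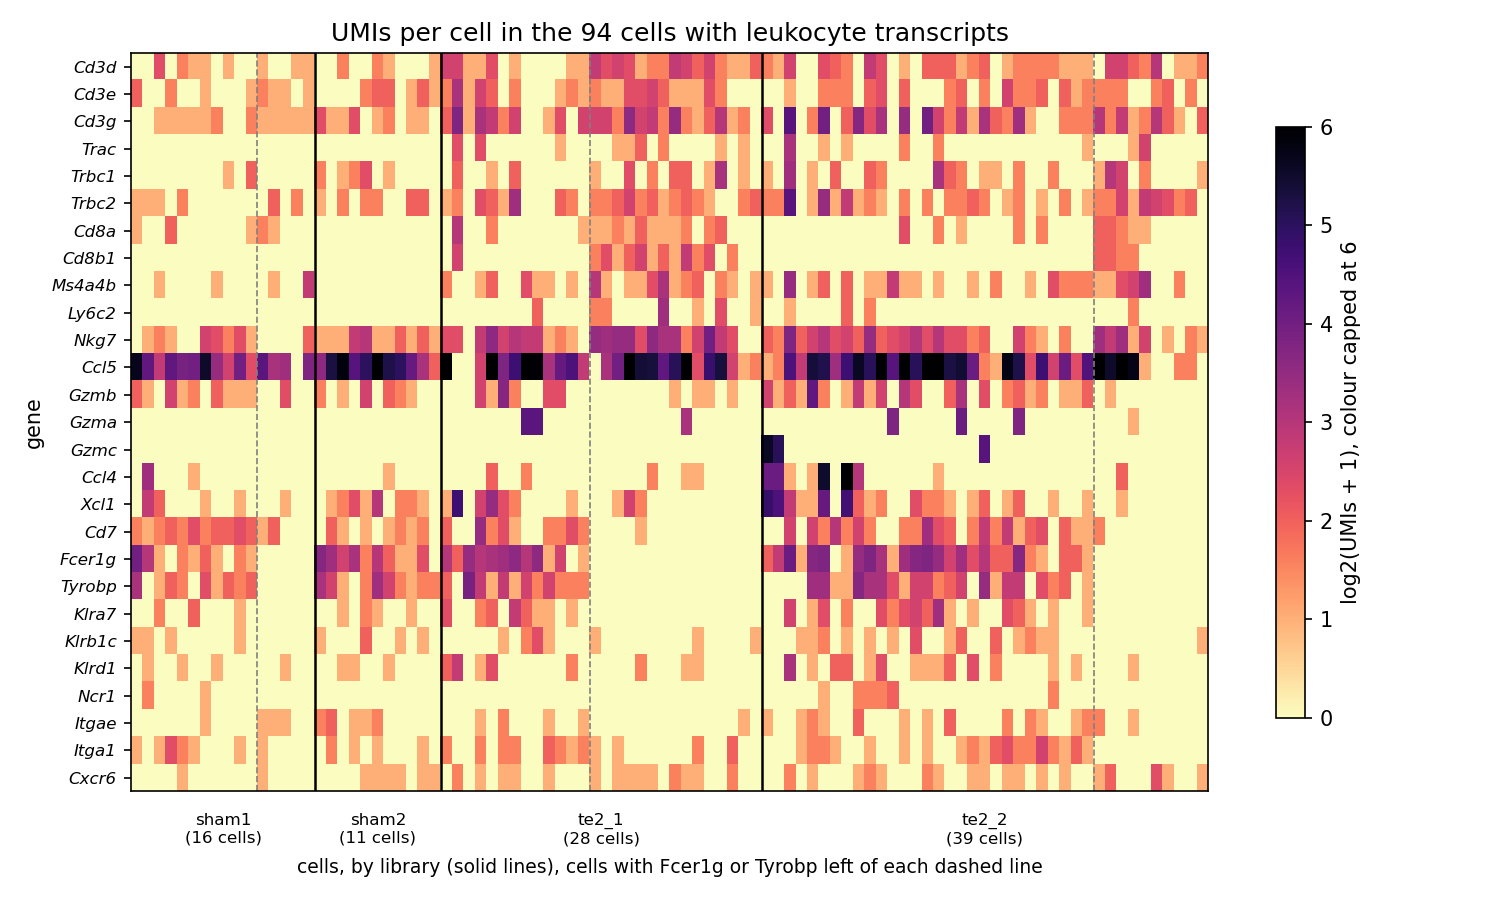
Each column is 1 of the 94 lymphocyte-like cells and each line of the map a gene, coloured by log2(UMIs + 1). Solid lines separate the libraries and dashed lines the cells with Fcer1g or Tyrobp, on the left, from those without. Cd8b1 is found almost wholly to the right of the dashed lines of te2_1 and te2_2, and Gzmb, Cd7, Xcl1 and Klra7 mostly to the left.

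The picked cells made up a larger share of kept cells in te2. The shares were 1.22% and 0.892% in sham1 and sham2 and 3.31% and 3.93% in te2_1 and te2_2. The groups did not overlap, and the mean was 1.06% ± 0.232 in sham and 3.62% ± 0.436 in te2 (SD, n = 2 each), a difference of 2.56 points with p = 0.333 in a two-sided exact permutation test, the smallest value that 2 libraries against 2 can give. Most of the gap came from the cells without leukocyte transcripts, at 0.244% and 0.347% against 2.11% and 2.08%. The lymphocyte-like cells made up 0.977% and 0.545% in sham (exact 95% binomial intervals 0.559 to 1.58 and 0.273 to 0.974) and 1.2% and 1.85% in te2 (0.802 to 1.74 and 1.32 to 2.52). With every cell thinned to 500 UMIs, the share of picked cells was 0.824% and 0.548% in sham and 1.09% and 1.59% in te2. The groups still did not overlap, and the ratio of their means fell from 3.43 to 1.95. A share says nothing of absolute numbers: more lymphocytes and fewer other captured cells cannot be told apart.

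Set against the C1q cells alone, the order of the groups was lost. The lymphocyte-like cells made up 20.3% and 15.9% of these and C1q cells in sham and 18.5% and 31.2% in te2. Te2_1 lay between the sham libraries here, and the exact permutation test gave p = 0.667.

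Subsets were counted by known genes. Among all 198 picked cells, 2 or more UMIs of the cytotoxic genes were found in 16 of 20, 11 of 18, 25 of 77 and 35 of 83 cells of sham1, sham2, te2_1 and te2_2. The mean share was 70.6% in sham and 37.3% in te2 (exact permutation p = 0.333, adjusted over 7 subsets 0.778). Within the lymphocyte-like cells the counts were 15 of 16, 11 of 11, 25 of 28 and 35 of 39, or 93.8%, 100%, 89.3% and 89.7%. With the same cells, chosen at full depth, thinned to 500 UMIs each, the shares were 93.1%, 99.5%, 82.5% and 77.4%. Both te2 libraries were below both sham libraries, with mean differences (te2 minus sham) of -7.36 points before thinning and -16.4 after it. Cells that fail the rule at 500 UMIs stay in this count. With the rule also applied to the thinned counts of all cells, the shares were 87.4%, 85.5%, 82% and 77.4%, a difference of -6.77 points.

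NK receptor transcripts were found in 7 of 16, 8 of 11, 12 of 28 and 27 of 39 lymphocyte-like cells. The groups overlapped, since sham1 and te2_1 were low and sham2 and te2_2 high. CD8 transcripts were found in 5 of 16, 0 of 11, 16 of 28 and 10 of 39, which overlapped as well. Trdc was found in 2, 1, 0 and 6 cells. Adaptor cells made up 11 of 16, 11 of 11, 13 of 28 and 29 of 39, and cells with CD8 but no adaptor 2, 0, 13 and 5. Cells with neither numbered 3, 0, 2 and 5, and all 10 carried a CD3 or T cell receptor transcript. The 5 in te2_2 had 0 to 2 UMIs of Ccl5 and 0 of Gzmb. A missing UMI at this depth does not show that a transcript is absent, and the kind of these cells was not tested. With the cells chosen at full depth and then thinned to 500 UMIs, adaptor cells made up 61.6%, 96.8%, 40.7% and 59.9%. Both sham libraries lay above both te2 libraries, sham1 and te2_2 narrowly apart. In the same thinning, CD8 cells made up 21.6%, 0%, 41.3% and 17.2% of the lymphocyte-like cells, so te2_2 lay below sham1. Of all 198 picked cells, 2 or more UMIs of the type 2 innate lymphoid genes, Gata3 among them, were found in 0, 3, 18 and 12, but among the lymphocyte-like cells in 0, 1, 1 and 0. No subset share passed an adjusted p of 0.05, nor could any in a test of 2 libraries against 2.

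Levels in the lymphocyte-like cells were then set side by side between the groups, with no test, over 13353, 11152, 52573 and 75889 UMIs. Of 1328 genes with at least 20 UMIs, 31.2% had both te2 libraries above both sham libraries and 14.1% had them below. Among 15 genes of the T cell receptor complex and its signalling at that depth, 8 were higher in te2 (Cd2, Cd3d, Cd3g, Lck, Sh2d2a, Skap1, Trac and Zap70), 0 were lower and 7 overlapped. Cd3d, Cd3g and Trac belong to the rule, so their place in this count supports nothing. Lck and Zap70, the kinases that relay the receptor's signal, stood at 3, 0.897, 3.04 and 3.43 and at 0, 1.79, 2.28 and 2.77 per 10000. Some of these gaps between the groups are narrow, such as that of Lck between sham1 and te2_1.

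Granule and NK genes were read against the same shares over all genes, 31.2% and 14.1%. Of 11 cytotoxic genes with at least 20 UMIs, 3 had both te2 libraries above (Cst7, Ctsw and Gzma, the last from few cells and not listed in sham), 2 were lower (Ccl5 and Gzmb) and 6 overlapped, which is near those shares. Of 11 NK receptor and adaptor genes, 2 were higher (Klrd1 and Klrk1) and 4 lower (Fcer1g, Tyrobp, Txk and Cd244a). Adaptor cells were 68.8% and 100% of the sham cells and 46.4% and 74.4% of the te2 cells. The part of this makeup in the adaptor levels was not tested, since having such a UMI defines the class. Within adaptor cells alone, Ccl5 stood at 211, 288, 125 and 162 per 10000, with both sham libraries higher, while Gzmb at 19, 12.6, 9.17 and 13.6 overlapped.

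Genes of antigen presentation were read the same way. Of 10 genes of MHC class I presentation, 5 were higher in te2, 0 lower and 5 overlapped, beside 31.2% and 14.1% over all genes. H2-K1, a class I heavy chain, stood at 11.2, 15.2, 19.2 and 23.6, and Psmb9, an immunoproteasome subunit, at 0, 0, 3.04 and 2.64. H2-K1 was ordered the same way in the C1q cells, at 6.09, 8.22, 10.8 and 14.1. Of 5 genes of the interferon response, 2 were higher and 3 overlapped, near the 31.2% over all genes.

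Cell cycle transcripts came from few cells. The list summed to 13.5, 19.7, 43.2 and 30.8 UMIs per 10000, higher in both te2 libraries. Cells with at least 10 UMIs of the list numbered 0 of 16, 1 of 11, 5 of 28 and 2 of 39, and 1 cell of te2_1 and 1 of te2_2 held 104 and 127 of the 501 UMIs. This limit is a UMI count, which deeper cells reach more easily, and median depth was 790.5, 1046, 1530 and 1662 UMIs. The part of depth in these numbers was not tested. Without the 8 cells, the sums were 13.5, 11.1, 21.8 and 14.5. Both te2 libraries were still above both sham libraries, by a smaller margin.

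In edgeR's quasi-likelihood test on the counts of all 198 picked cells summed per library, 127 of 5268 genes passed an adjusted p of 0.05 (2.41%), 63 higher in te2 (1.2%) and 64 lower (1.21%). These sums compare mixtures, since the 104 cells without leukocyte transcripts gave 42.9%, 78%, 89.8% and 87.1% of their UMIs. No gene of the T cell receptor, cytotoxic or NK lists was called higher. Of 13 genes of the T cell receptor list tested (of 25), 0 outside the rule were called. Of 8 cytotoxic genes tested (of 16), 3 outside the rule were lower: Ccl5, Gzmb and Xcl1. Calls on the rule genes Cd3e and Nkg7 are within the totals and are not read as results. Of 9 NK receptor and adaptor genes tested (of 19), 4 were lower: Cd7, Fcer1g, Txk and Tyrobp. Of 6 tissue residence genes tested (of 11), Itga1 and Itgae were lower. Ptprc, the transcription factor Id2 and the lymphotoxin chain Ltb were lower too, as was the fibroblast gene Dcn. The lymphocyte-like cells held 99.6% of the Ptprc UMIs. There it gave 19, 19, 88 and 105 UMIs among 13353, 11152, 52573 and 75889 in all, so its call in the mixed sums is not read as a change within those cells. The basal keratin Krt15, Ly6a (Sca-1), the glucocorticoid-responsive gene Fkbp5 and the respiratory chain genes Atp5o and Ndufa4 were higher. None of the tested genes of the cell cycle (13), ribosomal protein (46) or MHC class I (11) lists was called. The median log2 change was -2.09 over the tested NK genes, beside 0.2 over all genes tested. Cells without leukocyte transcripts gave 66.9% of the UMIs in sham and 88.3% in te2, so this median is not read as a change of the list.

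Ccl5 in these sums fell by 2.16 on the log2 scale (SE 0.547, edgeR adjusted p = 0.0212), Gzmb by 2.39 (SE 0.425, adjusted p = 0.000567 in edgeR) and Cd7 by 2.64 (SE 0.447, adjusted p = 0.000266 in edgeR). The cells with leukocyte transcripts held 99.3% of the Ccl5 UMIs, 98.1% of the Gzmb UMIs and 100% of the Cd7 UMIs. The ratio of te2 to sham within those cells was 0.687 for Ccl5 (95% counting interval 0.626 to 0.755), 0.609 for Gzmb (0.416 to 0.912) and 0.477 for Cd7 (0.333 to 0.693). For Cd7 the libraries overlapped there. None of the 3 passed when edgeR was run on those cells alone, with log2 changes of -0.60 (adjusted p = 0.48) for Ccl5, -0.78 (adjusted p = 0.364) for Gzmb and -1.12 (adjusted p = 0.27) for Cd7. In the sums of all picked cells, the calls of Gzmb and Cd7 were lost without sham1 (edgeR adjusted p = 0.0641 and 0.255) or te2_1 (0.155 and 0.0939), and that of Ccl5 without te2_1 (0.765) or te2_2 (0.59).

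The 12 genes that rose most came almost wholly from the cells without leukocyte transcripts. Smr2l, whose counts are uncertain because reads may be split with its relative Smr2, gave 0, 0, 701 and 436 UMIs, 6 of them in the lymphocyte-like cells. Psca, a surface antigen of proximal prostate epithelium, gave 0, 0, 248 and 216 UMIs, or at least 7.1-fold higher in te2 against a floor of 3 counts. Fxyd4, a regulator of the sodium pump, gave 0, 0, 247 and 177, at least 9.49-fold higher. The same pattern of 0 in both sham libraries held for Smr2, Gm16976, Lrg1, Ptgdr, Saa1, Atp6ap2, S100a1, Olfml3 and Aig1. Of the UMIs of these 12 genes, the lymphocyte-like cells held between 0 and 5.03%.

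Genes that fell most were of 2 kinds. Secretory transcripts came from few cells: Pbsn (probasin) gave 0, 209, 28 and 6 UMIs, Msmb (beta-microseminoprotein) 0, 1371, 141 and 219, and Defb1 (a defensin) 0, 102, 47 and 43. A single sham2 cell held 91.4%, 57.4% and 75.5% of the sham UMIs of these 3 genes. The other kind lay mostly in the lymphocyte-like cells: the haemoglobin gene Hbb-bs, with 20, 2, 1 and 6 UMIs (69% in them), Chn2, a Rac regulator, with 7, 5, 3 and 9 UMIs (87.5% in them), Akna with 6, 3, 6 and 9 (100%), Ppp1r16b with 4, 4, 5 and 10 (82.6%) and Arhgap9 with 5, 6, 4 and 17 (96.9%). Ggt1, Aebp1, Slc25a10 and Trmt10a completed the 12, at 19 to 23 UMIs each over the 4 libraries. Within the lymphocyte-like cells alone, Hbb-bs gave 15, 0, 1 and 4 UMIs, mostly from sham1. Chn2 did not pass when edgeR was run on those cells (log2 change -2.53, adjusted p = 0.149).

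Restricted to the lymphocyte-like cells, the same edgeR fit called 8 of 467 genes (1.71%), 4 higher in te2 (0.857%) and 4 lower (0.857%). Ubb, a ubiquitin gene, stood at 1.5, 0.897, 15 and 14.5 UMIs per 10000, and H3f3b, a histone H3 variant, at 3.74, 4.48, 18.5 and 18.1. Both were also higher in both te2 libraries in luminal cells, where Ubb stood at 3.04, 2.51, 7.23 and 8.34. In C1q cells Ubb and H3f3b were ordered so too. Pdcd4, a translation inhibitor, was lower in te2, at 21.7, 17, 7.23 and 7.25, and in luminal cells at 15.7, 18.4, 11.3 and 8.18. The luminal secretory gene 9530002B09Rik was lower too. The count of 8 also takes in Sbp and Spink1, which the rule used, and Gzma, which the sham tables do not list and which rests on 7 cells. These 3 are not read as results.

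The response of the 198 picked cells was also compared with that of the C1q cells, as the term of class by group in edgeR with the library as a block. In this test, 12 of 4692 genes passed (0.256%), 5 with a larger (0.107%) and 7 with a smaller (0.149%) log2 change in the picked cells. Tmsb10, an actin-binding peptide, gave 54, 63, 144 and 253 UMIs in the picked cells, where it fell by 2.2 on the log2 scale. In the C1q cells it gave 50, 28, 335 and 149 UMIs, or 731, 544, 962 and 630 CPM after TMM scaling, and the groups overlapped. The adaptors Fcer1g and Tyrobp differed the same way. In C1q cells Fcer1g stood at 25.3, 23.8, 26.4 and 28.1 UMIs per 10000, and Tyrobp at 28.3, 25.6, 34.5 and 28.2. With the lymphocyte-like cells in place of all picked cells, 0 of 1917 genes passed in edgeR, and 114 had an unadjusted p under 0.05.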

How the data were processed

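Single-cell 3' libraries of 4 animals were used, as whole-number UMI counts per gene and cell, deposited by the authors as 1 table per animal. The submitters' processing notes name kallisto 0.46.1, bustools 0.39.4, R 4.3.2, Seurat 5.0.1 and the build GRCm39, with no role for each. Each table lists genes seen in at least 3 of its cells (checked, 0 exceptions), and a gene missing from a table was entered as 0. Library totals were 3999690, 5513275, 12259610 and 13134017 UMIs.

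Cells were picked by the stated rule, and the members and gene lists were chosen with earlier results of these data known. The division at 0.1% leukocyte UMIs and the adaptor classes were chosen after seeing the data. Counts of picked cells were summed per library and tested with edgeR 4.0.16 (filterByExpr, TMM, quasi-likelihood test, Benjamini-Hochberg adjustment at 0.05) in R 4.3.3, with DESeq2 1.42.0 as an alternative. Levels are UMIs per 10000 UMIs of the named cells. Intervals are 95% Poisson, binomial or, for ratios, exact conditional, and cover counting error only. Shares used exact permutation tests over libraries. The fits were tested on simulated data. Python 3.11.15, numpy 2.4.6, scipy 1.17.1, pandas 2.3.3, scanpy 1.11.5 and matplotlib 3.10.9 were used.

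Doublets were scored per library with scrublet in scanpy and left in, apart from 1 alternative. Cells scoring above 0.25 were called, 106 of 8091 kept cells, 5 of them picked cells. This limit was set after seeing the data, because the automatic one moved with the number of computing threads in sham2. Named genes were the 12 with the largest change each way among those called with at least 10 UMIs, every called list member and the most abundant ones, the markers, and the 6 of smallest p in the class comparison. Gzmc, Ccl1 and the genes named for few cells were chosen after their values were seen. Counts of near-identical copies (Smr2 and Smr2l, Klra and granzyme families) are uncertain. Alternatives changed the normalization, filters, cell limits, depth, doublets, replicate block and libraries, each in turn. A single one of the genes called in the lymphocyte-like cells is not reported here.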

Additional observations from a re-analysis of the deposited data

Results flagged for a closer look

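For 12 of 4692 genes the te2 change in the picked cells differed from that in the C1q cells, by the class-by-group term of edgeR's quasi-likelihood test with Benjamini-Hochberg adjustment. The 6 of smallest p are given here. The term was -2.57 (log2, SE 0.419) for Tmsb10, -3.11 (SE 0.545) for Tyrobp and -2.59 (SE 0.522) for Fcer1g. Of the UMIs in picked cells, the 94 lymphocyte-like cells held 86% for Tmsb10, 97.3% for Tyrobp and 99.7% for Fcer1g. Cells without leukocyte transcripts gave 66.9% of all UMIs of the picked cells in sham and 88.3% in te2. The part of this mixture in the terms was not tested. With the lymphocyte-like cells in place of all picked cells, 0 of 1917 genes passed in edgeR.

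The remaining terms among these 6 rest on low sham counts or few sham cells. Msmb, at -5.93, had 1371 sham UMIs, all from sham2 and 57.4% from 1 cell. Igf1, at -7.05, had 5 sham UMIs and 1 te2 UMI in the picked cells. Clu, a secreted chaperone, at 3.11, had 7 sham and 998 te2 UMIs in the picked cells, of which 7 in all lay in the lymphocyte-like cells.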

How the results depend on the processing

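The 127 calls between te2 and sham depended on which cells and libraries entered. DESeq2 gave 39, of which 37 were among the 127, no filter on low counts 193, at least 1000 UMIs per cell 54, Sbp and Spink1 under 2% 21, the lymphocyte-like cells 8, and at least 3 UMIs of the rule genes 1. Sums thinned to the smallest library gave 0 in edgeR, with 65 of 334 genes at an unadjusted p under 0.05. Leaving out 1 library gave 8 to 266, lowest without te2_1, with 18 without te2_2 and 266 without sham2; the lone library left in a group is then assumed to vary like the others. The replicate block gave 1 call. In the sums of picked cells, same-numbered libraries did not deviate together (correlation -0.0405 over 5268 genes). Cells without leukocyte transcripts gave 87% of the UMIs in these sums, so the value does not decide a pairing in the lymphocyte-like cells. There, shares of cells with NK receptor or adaptor transcripts were lower in sham1 and te2_1 than in sham2 and te2_2, and CD8 shares higher. No pairing of the numbers is known.

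The 12 calls of the class comparison became 1 in DESeq2, 5 without a filter, 0 to 21 without 1 library (0 without te2_1, 7 without te2_2, 21 without sham2), and 0 in edgeR with at least 3 rule UMIs, with Sbp and Spink1 under 2%, with thinned sums and in the lymphocyte-like cells, where 173, 156, 48 and 114 genes had an unadjusted p under 0.05.

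Over all picked cells, differences in subset shares (te2 minus sham, percentage points) were -33.2 for cytotoxic, -13.8 for NK and -4.16 for gamma-delta. They were 10.6 for type 2 innate, 2.17 for T receptor, -0.599 for CD4 and 4.52 for CD8. The T receptor share was largely set by the choice of cells, since the rule used genes of that subset, and it is not read as a result. With Sbp and Spink1 under 2%, which leaves 1 and 4 sham cells, the differences turned to -3.51 for T receptor, 29.7 for cytotoxic, 16.9 for NK, 4.17 for gamma-delta, -6.63 for type 2 innate and 1.41 for CD4. There log2 changes turned to 2.63 for Ccl5, 7.92 for Gzmb, 7.85 for Cd7, 0.69 for Fcer1g, 8.35 for Tyrobp and 2.23 for Ptprc, and class terms to 1.60 for Tmsb10, 7.62 for Tyrobp, 0.10 for Fcer1g and -1.59 for Clu. With at least 1000 UMIs, T receptor turned to -2.71 and CD4 to 2.13. Thinned to 500 UMIs, NK turned to 0.206 and type 2 innate to -0.127. Type 2 innate was -1.59 with at least 3 rule UMIs and -2.76 in the lymphocyte-like cells, where thinning gave -0.138, and -0.146 for T receptor. Without 1 library, CD4 ran from -3.10 to 1.90 (0.0974 without te2_2) and CD8 from -7.98 without sham2 to 17.02. Without 1 library, Pbsn ran from -7.81 to 6.58, Msmb from -6.45 to 9.94, Defb1 from -4.68 to 7.96 and the Msmb term from -6.19 to 3.82, each turned by leaving out sham2. The Clu term was -0.29 without doublets, -0.41 with at least 3 rule UMIs and -2.04 in the lymphocyte-like cells. The cause of these changes was not tested.

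With 24505 sham UMIs in 27 lymphocyte-like cells, genes of low level could not be compared, and 2 animals per group allow no exact p below 0.333.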
